A study of Mus musculus with 2 samples.

Results

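Osteoclast and cell fusion genes were followed through subcutaneous tumours of CT26, a mouse line of colorectal carcinoma, from animals given vehicle or WQ-2101. The 10 genes were taken by symbol from the 32285 genes of the deposited matrices: Ctsk, Acp5, Mmp9, Atp6v0d2, Nfatc1, Tnfrsf11a, Tnfsf11, Oscar, Dcstamp and Ocstamp. They were chosen by measured values of these libraries, namely a cluster of osteoclast-like cells and a higher Dcstamp level in WQ-2101 macrophages. Those 2 patterns are therefore given as description. Both groups were wild-type BALB/c mice that were 5 weeks old at the start, and both carried CT26 tumours collected on day 17 after implantation. One group received vehicle and the other WQ-2101, 20 mg/kg by intraperitoneal injection once a day from the time tumours reached about 100 mm³. The series title concerns inhibition of PHGDH, an enzyme of serine synthesis, in tumour cells and its effect on macrophages.

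Osteoclasts are the cells that resorb bone, and they arise when precursors of the monocyte and macrophage lineage differentiate and fuse into large cells with many nuclei. The ligand RANKL (Tnfsf11) binds the receptor RANK (Tnfrsf11a) on the precursor and, together with the growth factor receptor Csf1r and costimulatory receptors such as OSCAR (Oscar), switches on the transcription factor NFATc1 (Nfatc1). NFATc1 then drives genes for fusion, for the acid pump and for the enzymes that digest bone matrix. DC-STAMP (Dcstamp) and OC-STAMP (Ocstamp) are membrane proteins needed for fusion, and DC-STAMP was first described in dendritic cells. Cathepsin K (Ctsk) and MMP9 (Mmp9) digest matrix proteins, TRAP (Acp5) is the acid phosphatase used to stain osteoclasts, and Atp6v0d2 is a subunit of the proton pump. Several of the 10 also work outside bone: neutrophils carry MMP9, activated T cells make RANKL, and NFATc1 acts in lymphocytes and endothelium.

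Each group was 1 droplet library that reads transcript 3′ ends, so no difference below has a replicate error, no test was made, and every interval is a 95% interval that covers counting error only. The vehicle library held 14374 barcodes and 184754398 UMIs, the WQ-2101 library 18142 barcodes and 185587327 UMIs. After filters, 13668 vehicle and 17293 WQ-2101 cells remained, at median depths of 10742.5 and 8048 UMIs, and 61 of their barcodes occurred in both libraries. How many mice a library came from is not stated in the labels. Levels are UMIs per 1000000 UMIs of the cells named (CPM). A 3′ UMI counts a transcript once, but whether reads in introns were counted is not stated, and these would add UMIs to long genes, so the order of levels between genes is approximate. Cell types were gated on summed markers, and none of the 10 genes was used in a gate or in the clustering.

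Stretches of 250 bases before the RefSeq transcription start, from build GRCm38.p6, are shown for Ctsk, Acp5 and Oscar. They show which letters known for osteoclast regulators occur there. These are 3 of the genes whose transcripts were highest in the osteoclast-like cells. Tnfrsf11a was also highest in those cells, and above Oscar, but its stretch is not shown, so the choice did not follow level alone. Of the 10 genes, 5 had an entry among those searched (Ctsk, Acp5, Oscar, Tnfrsf11a and Tnfsf11), with 7 entries in all. Atp6v0d2, Dcstamp, Ocstamp, Mmp9 and Nfatc1 had none. Both strands were searched for the NFAT core GGAAA, the AP-1 motif TGANTCA, the MITF E-box CATGTG and the PU.1 core GAGGAA, and matches are in capitals. A GAGGAA that is followed by A also holds GGAAA. The Ctsk stretch lies at chr3:95498960-95499209 on the plus strand, the Acp5 stretch at chr9:22130599-22130848 on the minus strand, and the Oscar stretch at chr7:3616158-3616407 on the minus strand.
Ctsk: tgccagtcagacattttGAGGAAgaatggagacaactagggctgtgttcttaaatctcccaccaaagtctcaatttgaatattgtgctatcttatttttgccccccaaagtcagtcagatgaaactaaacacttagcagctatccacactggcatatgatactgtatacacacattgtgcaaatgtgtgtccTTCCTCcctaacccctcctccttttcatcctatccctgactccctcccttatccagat
Acp5: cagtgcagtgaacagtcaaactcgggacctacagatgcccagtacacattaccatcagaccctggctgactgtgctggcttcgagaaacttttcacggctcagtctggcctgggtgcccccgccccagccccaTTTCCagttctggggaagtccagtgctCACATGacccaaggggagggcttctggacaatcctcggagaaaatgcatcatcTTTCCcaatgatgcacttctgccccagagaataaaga
Oscar: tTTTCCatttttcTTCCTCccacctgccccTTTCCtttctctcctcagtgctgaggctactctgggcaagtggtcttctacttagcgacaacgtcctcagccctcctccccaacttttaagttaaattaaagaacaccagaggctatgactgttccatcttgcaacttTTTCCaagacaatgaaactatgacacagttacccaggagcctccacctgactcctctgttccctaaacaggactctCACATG
The Ctsk stretch held 2 PU.1 cores, at positions -233 and -58 from the start, and no NFAT core. The Acp5 stretch, which of its 3 entries held the most matches, carried NFAT cores at -117 and -37 and an E-box at -90. In the Oscar stretch there were 5 matches: NFAT cores at -249, -220 and -82, a PU.1 core at -237 and an E-box at -6. Over 32851 promoters of the same length, 55.6% held GGAAA, 23.3% GAGGAA, 12.3% CATGTG and 6.75% TGANTCA. In GRCm38 (GENCODE vM21), Ctsk spans chr3:95499256-95509362, Acp5 chr9:22126727-22135711, Dcstamp chr15:39745930-39760938, Mmp9 chr2:164940780-164955850 and Atp6v0d2 chr4:19876841-19922605. The matches are a description of the letters and say nothing of binding. The Tnfrsf11a stretch held no match, and the Tnfsf11 stretch held 1 NFAT core.

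One small cluster carried 9 of the 10 genes at their highest level of any cell class in vehicle, and it had been formed with the 10 genes removed. It held 169 vehicle cells (1.24% of kept cells, exact interval 1.06 to 1.44) and 14 WQ-2101 cells (0.0810%, 0.0443 to 0.136). Its share in WQ-2101 was 0.0655 times that in vehicle (0.0350 to 0.113). A gate on 9 other osteoclast markers gave 178 and 28 cells, a ratio of 0.124 (0.0803 to 0.186). Of the gated cells, 155 of 178 in vehicle but 9 of 28 in WQ-2101 lay in the cluster. Both counts were lower in the WQ-2101 library, and so few WQ-2101 cells limit every level given for them.

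The name osteoclast-like rests on markers outside the 10 genes. The cluster carried Slc9b2, a sodium-proton exchanger of osteoclasts, at 786 CPM in the vehicle library and 413 in the WQ-2101 library, against 1.63 and 0.395 in gated macrophages. Rufy4 stood at 85.8 and 86.4 CPM against 0.0943 and 0.0878, and Itgb3, the beta subunit of the osteoclast vitronectin receptor, at 73.3 and 37.0 against 1.16 and 1.40. Car2, the carbonic anhydrase that supplies protons, was 45.8 and 49.4 CPM in the cluster, and Siglec15 was 22.2 and 18.5. All of these were well above the macrophage level in both libraries. Calcr, the calcitonin receptor and a defining marker of mature osteoclasts, was 8.0 CPM in vehicle and at 0 in WQ-2101.

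The same cells kept general myeloid transcripts and had little of the macrophage programme. Csf1r was 453 and 444 CPM in the cluster, against 317 and 317 in macrophages. The macrophage genes C1qa (89.8 and 43.2 CPM against 2030 and 2425), Lyz2 (474 and 142 against 9131 and 6324) and Adgre1 (11.6 and 0 against 154 and 142) were far lower there. Summed over the 11 macrophage markers, the cluster had 2110 CPM in vehicle and 1493 in WQ-2101. Markers of mast cells were at 0 in both libraries, and those of red cells at 0 in vehicle and 6.17 CPM in WQ-2101. Summed tumour markers were 119 CPM in the vehicle and 382 in the WQ-2101 cells, so the 14 WQ-2101 cells carried more tumour RNA. The part of that RNA in their lower Ctsk and Mmp9 levels was not tested.

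The matrix-digesting genes were by far the most abundant of the 10 in these cells. Ctsk took 10216 CPM in vehicle (22987 UMIs, exact Poisson interval 10084 to 10349) and 5435 in WQ-2101 (881 UMIs, 5082 to 5806). Acp5 was 6858 and 5496 CPM, and Mmp9 5360 and 2548 CPM. The pump subunit Atp6v0d2 followed at 1111 and 907 CPM. Each of the 4 was lower in the WQ-2101 cells, and of the 4 intervals those for Atp6v0d2 (1068 to 1155 and 766 to 1066) lay closest together.

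Of the regulators, Nfatc1 was 633 CPM in vehicle and 648 in WQ-2101. It had a UMI in 95.9% and 92.9% of these cells, so nearly every cell carried it. The receptor Tnfrsf11a was 244 and 234 CPM. For both genes the intervals of the libraries overlap. Oscar, the costimulatory receptor, was 99.6 CPM (224 UMIs) and 130 CPM (21 UMIs). The ligand gene Tnfsf11 had no UMI in the 169 and 14 cells. A count of 0 allows up to 1.33 CPM in vehicle and 18.5 CPM in WQ-2101.

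The fusion genes were less abundant than the digesting enzymes and differed from each other. Dcstamp was 238 CPM in vehicle (218 to 259) and 321 in WQ-2101 (240 to 421), a ratio of 1.35 whose interval of 0.993 to 1.79 includes 1. Ocstamp was 198 CPM in vehicle from 445 UMIs and 74.0 in WQ-2101 from 12 UMIs, a ratio of 0.374 (0.192 to 0.660). A UMI of Dcstamp was found in 73.4% and 64.3% of the cells, and of Ocstamp in 70.4% and 42.9%. With every cell thinned to 3000 UMIs, Dcstamp was found in 37.6% of 165 vehicle cells, against 0.362% of 276 T cells, which should lack it.

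**Figure D1:**
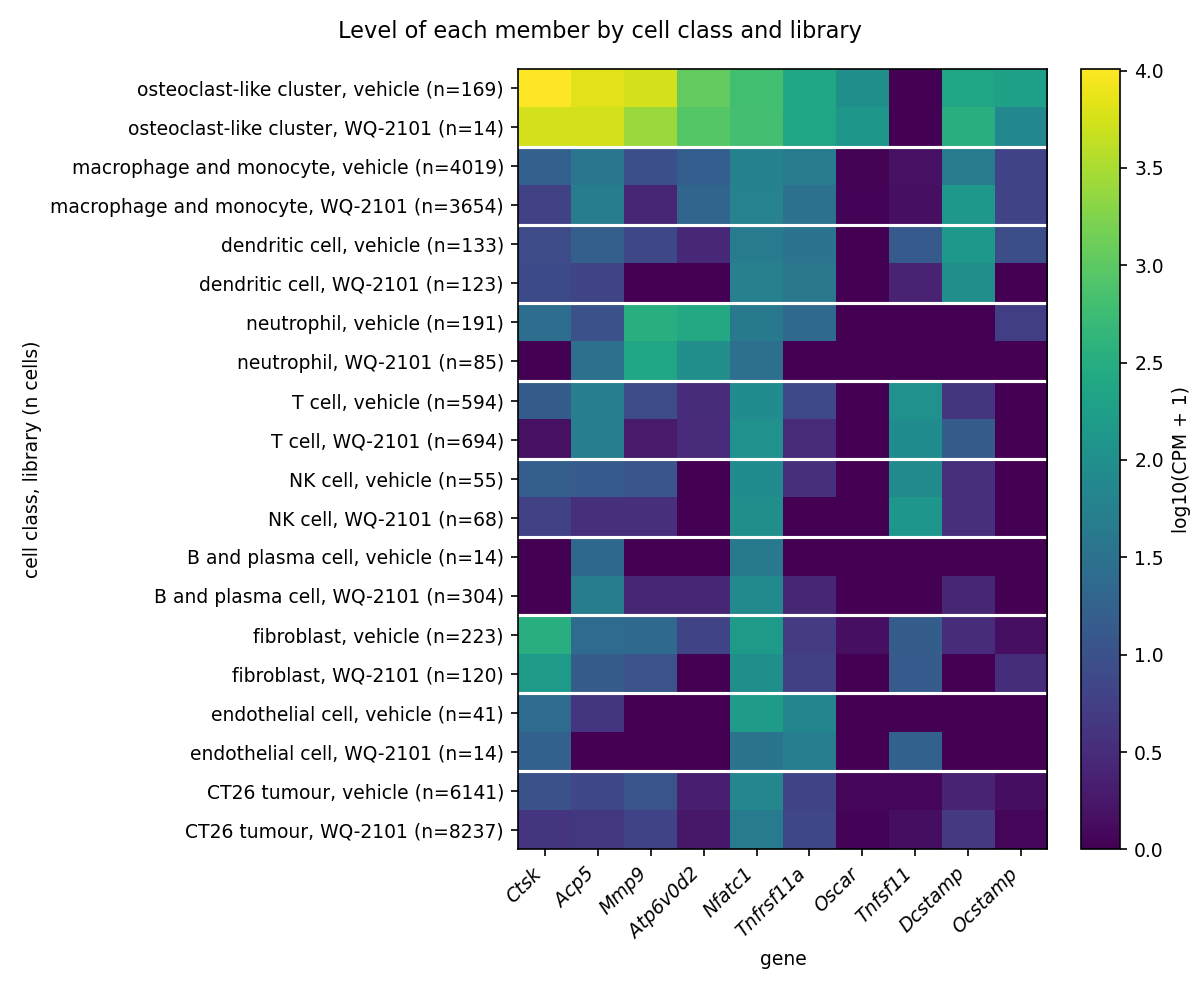
Level of the 10 genes as log10(CPM + 1), by cell class and library, with the number of cells in each row label. In both libraries the osteoclast-like cluster is the brightest class for Ctsk, Acp5, Mmp9 and Atp6v0d2, while Tnfsf11 is dark there and bright in T and NK cells.

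Within the cluster the enzymes varied widely from cell to cell. Per 10000 UMIs of a vehicle cell, Ctsk ran from 0 to 386 with a median of 103, Acp5 from 0 to 297 with a median of 57.3, and Mmp9 from 0 to 219 with a median of 54.5. The WQ-2101 cells had medians of 38.4, 30.3 and 17.1, and highest values of 171, 160 and 89.1. Every WQ-2101 cell thus lay within the range of the vehicle cells. At least 10 per 10000 UMIs of each of the 3 enzymes were found in 143 of the 169 cells in vehicle and 7 of the 14 in WQ-2101, whereas 10 and 2 cells were below 10 for all 3. Median depth was 12043 and 10481 UMIs per cell, above the 7483 and 5992 of macrophages, and median doublet scores were 0.0655 and 0.106, against 0.0682 and 0.119 in macrophages.

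**Figure D2:**
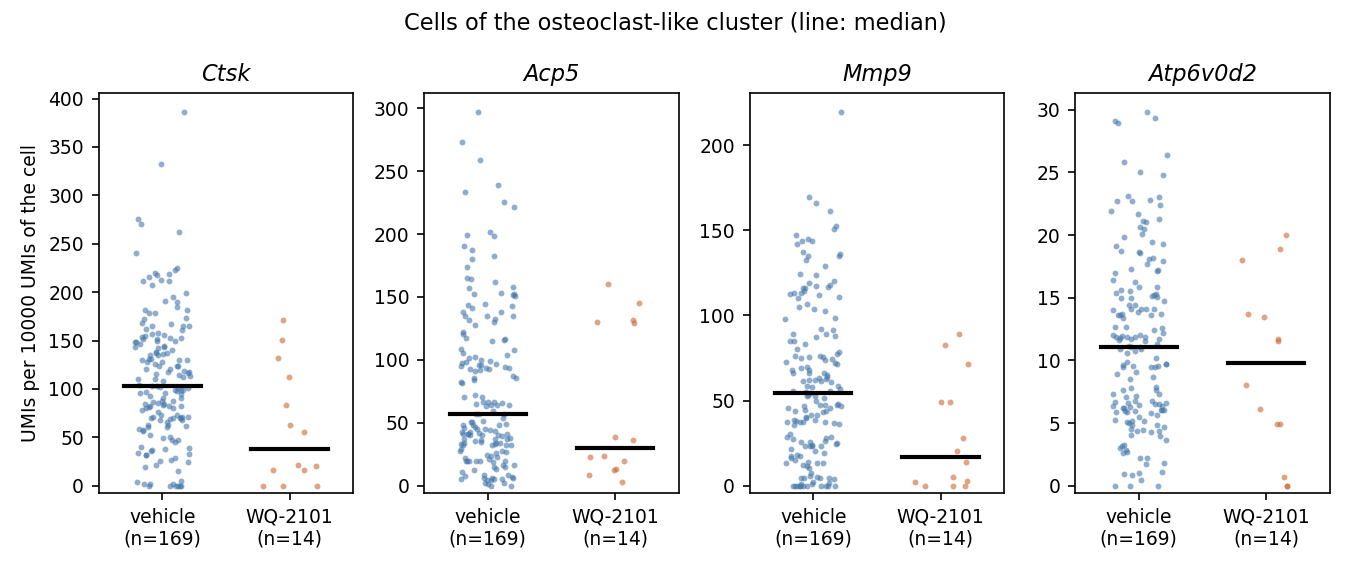
UMIs of Ctsk, Acp5, Mmp9 and Atp6v0d2 per 10000 UMIs of each cell of the osteoclast-like cluster, 1 point per cell, with the median as a line. The 14 WQ-2101 cells spread over the lower part of the range of the 169 vehicle cells for Ctsk and Mmp9, and several sit near 0.

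Levels of the enzymes went together across the 169 vehicle cells of the cluster. Spearman's rho was 0.744 between Ctsk and Acp5, 0.763 between Ctsk and Mmp9, and 0.720 between Acp5 and Mmp9. Atp6v0d2 followed them less closely, with 0.489, 0.566 and 0.385. Ctsk and Nfatc1 had a rho of 0.0450, and with counts this low for Nfatc1 a weak value is no finding. Acp5 (0.660), Atp6v0d2 (0.629), Ctsk (0.589) and Mmp9 (0.470) also went with the summed level of the 9 osteoclast markers that are not among the 10 genes. The cells share 1 library, and the enzymes' levels had a rho of -0.316 to -0.0899 with the cells' UMIs, so these values carry no test.

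Most cells of the cluster carried several of the 10 genes at once. After thinning, the median cell had 6 of the 10 in vehicle and 5 in WQ-2101, against 0 in macrophages of either library. At least 4 were found in 153 of 165 cells in vehicle (92.7%) and 10 of 14 in WQ-2101 (71.4%). The same held for 3 of 3738 vehicle macrophages and 3 of 3056 WQ-2101 macrophages. Outside the cluster, joint detection of 4 genes was thus rare.

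Other genes of osteoclast biology were set beside macrophages over both libraries together, as a description of the cluster and not as a test. Among all 9586 genes with enough counts, 18.3% were at least 1.5-fold higher in the cluster and 16.8% lower, and the median log2 ratio was 0.09. Of 21 genes on a wider osteoclast list, 18 were higher and 1 lower. That list includes markers by which the cluster was named. The count is therefore no separate support for the name. Besides those markers, the higher genes included the pump subunit Tcirg1 (382 and 358 CPM against 84.6 and 91.9 in macrophages), the chloride exchanger Clcn7 (120 and 105 against 30.9 and 27.5) and Snx10 (599 and 407 against 92.8 and 90.4). Pstpip2, an adaptor that restrains osteoclast formation, was the gene that was lower. Of 21 genes of the proton pump and lysosome, 11 were higher and 6 lower. The pump subunits Atp6v0c (3761 and 2449 CPM against 1053 and 957) and Atp6v1g1 (2287 and 1629 against 351 and 330) were higher, while the protease Ctss, which acts in antigen presentation, was lower (161 and 167 against 1499 and 1586).

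Genes that hold back osteoclast formation were mostly lower in the cluster: 10 of 16 were lower, none was higher, and the median log2 ratio was -1.28. Irf8, a factor that keeps precursors from becoming osteoclasts, was 17.3 and 12.3 CPM against 148 and 186 in macrophages. Of 24 genes of RANK signalling, 1 was higher and 9 lower, and of 14 genes of costimulation through ITAM adaptors, 1 was higher and 9 lower. Of 31 genes linked to cell fusion, 5 were higher and 16 lower. The higher ones included Itgav, an integrin subunit (827 and 981 CPM against 199 and 215), which osteoclasts use for adhesion. Apart from the 10 genes, more pump and lysosome genes were higher than lower in the cluster, and more genes of the fusion list were lower than higher.

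The genes that most set the cluster apart from macrophages, with the 10 themselves left out, were Slc9b2, Mt3, Myo1d, Plxna4, Bdh2, Cacnb2, Akap6, Fam102a, Pheta1 and Arsb. Mt3, a metallothionein, was 355 CPM in vehicle and 117 in WQ-2101 cells of the cluster, and 0.201 over all macrophages. Plxna4, a semaphorin receptor, was 271 and 290 CPM, and Cacnb2, a calcium channel subunit, 232 and 444. Arsb, a lysosomal sulfatase, was 319 and 315.

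Cells with a UMI of Ctsk, Acp5 and Mmp9 together were also counted, without markers or clusters. The genes were chosen with the osteoclast-like cluster known, and most such vehicle cells lay in it. The count is therefore no separate support for the cluster's lower share. There were 209 such cells in vehicle (1.53%, exact interval 1.33 to 1.75) and 42 in WQ-2101 (0.243%, 0.175 to 0.328), a ratio of 0.159 (0.111 to 0.222). In vehicle 155 of them were in the osteoclast-like cluster, 29 in the tumour gate and 13 in the macrophage gate. In WQ-2101, 10 were in the cluster and 28 in the tumour gate. With at least 5 UMIs of each gene the counts were 154 and 13. After thinning they were 154 of 12321 cells and 14 of 14494, a ratio of 0.0773 (0.0413 to 0.134). Every form of the count was lower in WQ-2101.

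The WQ-2101 tumour cells with the 3 enzymes were unlike the cluster. Those with at least 2 UMIs of each numbered 15 (3 in vehicle). Their median was 25801 UMIs, against 13701 in the other WQ-2101 tumour cells, and their median doublet score 0.250 against 0.152. Slc9b2 was 13.8 CPM in them and 0.165 in the others. Ctsk was 225 CPM, far under the 5435 of the cluster. Among the barcodes removed as doublets, 8 in vehicle and 0 in WQ-2101 had at least 10 UMIs of each enzyme, while 147 and 8 kept cells did.

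The few cells of the cluster held most of what the vehicle library contained of these genes. They supplied 90.7% of the Oscar UMIs of kept vehicle cells, 89.0% of Ctsk, 86.2% of Acp5, 86.0% of Mmp9, 72.8% of Atp6v0d2 and 61.8% of Ocstamp. In WQ-2101 the shares were 58.3%, 54.6%, 31.7%, 32.2%, 17.3% and 5.50%. For Dcstamp and Tnfrsf11a the cluster gave 18.2% and 19.2% in vehicle and 1.10% and 2.16% in WQ-2101, and macrophages gave 49.2% and 48.4% in vehicle and 67.0% and 40.9% in WQ-2101. Tumour cells supplied 21.3% of the Tnfrsf11a UMIs in vehicle and 42.9% in WQ-2101. Nfatc1 came mainly from tumour cells, with 60.7% and 65.2% of its UMIs, and Tnfsf11 from T cells, with 55.0% and 49.0%.

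Leaving out the cluster changed the whole-library levels of the enzymes. Over all kept cells Ctsk was 150 CPM in vehicle and 9.26 in WQ-2101, and without the cluster 16.7 and 4.21. Acp5 was 104 and 16.1 CPM, and without the cluster 14.5 and 11.01. Mmp9 was 81.3 and 7.37 CPM, and without the cluster 11.6 and 5.00. Dcstamp went the other way, at 17.1 and 27.0 CPM with the cluster and 14.2 and 26.7 without it.

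In gated macrophages and monocytes (4019 vehicle and 3654 WQ-2101 cells), 3 of the 8 genes with a mean of at least 5 CPM were past 1.5-fold on the scale of CPM plus 5: Dcstamp was higher, and Ctsk and Mmp9 were lower in WQ-2101. Over all 9372 genes at that filter, 1.73% were higher, 0.512% lower and 2.24% past the fold in either direction. Dcstamp was 45.5 CPM in vehicle (1449 UMIs, 43.2 to 47.9) and 138 in WQ-2101 (3153 UMIs, 134 to 143), a ratio of 3.04 (2.86 to 3.24) and a log2 difference of 1.5. The genes were chosen for this difference, so nothing is read from the count. The macrophage gate was less pure in WQ-2101: 97.2% of the cells gated in vehicle and 84.4% of those gated in WQ-2101 lay in macrophage clusters.

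The other osteoclast genes differed less in macrophages. Acp5 was 36.8 CPM in vehicle and 48.4 in WQ-2101 (ratio 1.31, 1.21 to 1.43), and Atp6v0d2 14.95 and 19.5 (1.31, 1.14 to 1.49). The receptor Tnfrsf11a was 43.4 and 31.6 (0.728, 0.664 to 0.797). Nfatc1, at 57.1 and 59.9, and Ocstamp, at 5.34 and 5.53, had ratios whose intervals include 1. Tnfsf11 (0.503 and 0.483 CPM) and Oscar (2 UMIs in each library) were next to absent. The receptor of RANKL and the master factor were thus present in macrophages of both libraries, and the ligand and OSCAR were near 0.

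Ctsk was 16.1 CPM in vehicle and 5.09 in WQ-2101 macrophages (ratio 0.316, 0.256 to 0.387), and Mmp9 8.45 and 1.58 (0.187, 0.128 to 0.265). In vehicle both genes were about as common in cells that should lack them. After thinning, 3.64% of vehicle macrophages and 3.99% of vehicle T cells had a UMI of Ctsk, and 1.98% and 3.26% one of Mmp9, so the vehicle macrophage shares are not read as expression. In WQ-2101, Ctsk was found in 1.31% of macrophages (0.937 to 1.78), 0.610% of tumour cells (0.451 to 0.805) and 0 of 238 T cells. With an estimate of free RNA subtracted, Ctsk was 7.0 and 4.60 CPM, a log2 difference of -0.32, and Ctsk was no longer called. Mmp9 was 3.48 and 0.9003 CPM and fell under the filter, so it was not called either. Acp5, at 32.3 and 52.2 CPM, was called higher under that subtraction alone, with a log2 difference of 0.62. Mmp9 also dropped out under the filter with a stricter gate, with a minimum of 1000 UMIs, with a mitochondrial limit of 10% and with clusters at equal shares.

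**Figure D3:**
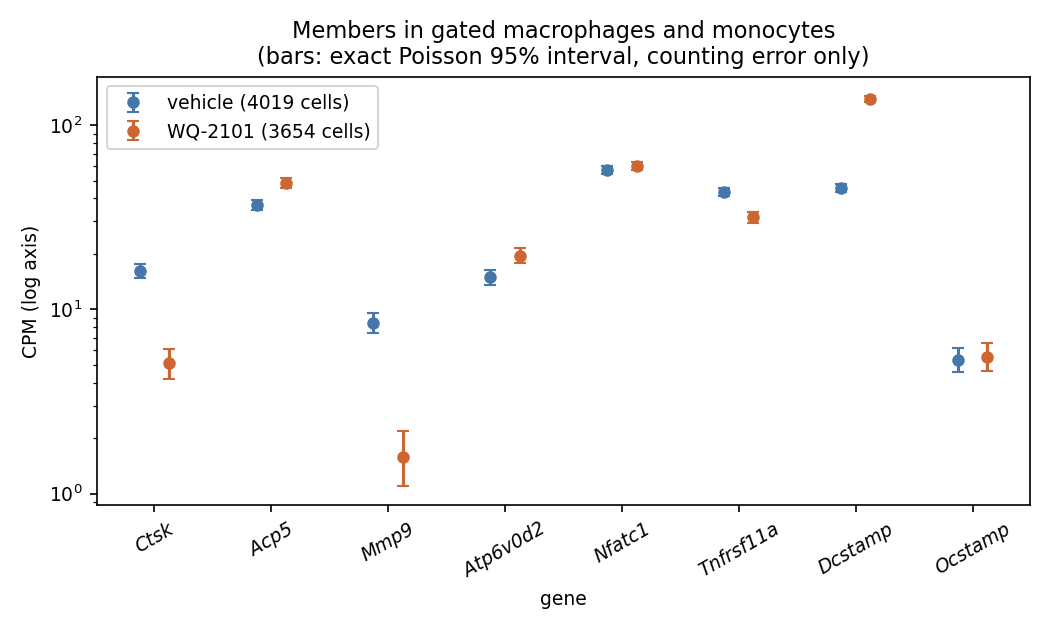
Level in gated macrophages and monocytes of the 8 genes with at least 5 mean CPM, on a log axis, in vehicle and WQ-2101, with exact Poisson intervals. Dcstamp is the gene with the clearly higher WQ-2101 point, Ctsk and Mmp9 have the lower ones, and the pairs for Nfatc1 and Ocstamp overlap.

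More macrophages carried Dcstamp in WQ-2101, and those that did carried more of it. A UMI was found in 470 of 4019 vehicle macrophages (11.7%, exact interval 10.7 to 12.7) and in 749 of 3654 WQ-2101 macrophages (20.5%, 19.2 to 21.8), a ratio of 1.75. WQ-2101 macrophages were shallower, and with each cell thinned to 3000 UMIs, which left out 281 and 598 cells, the shares were 7.01% and 16.4%, a ratio of 2.33. Background moved the same way: after thinning, 0.362% of vehicle and 3.36% of WQ-2101 T cells had a UMI of Dcstamp, and 0.475% and 0.971% of tumour cells. The macrophage share stood above that of both cell types in each library. Positive macrophages had a mean of 3.08 UMIs in vehicle and 4.21 in WQ-2101, and at least 5 UMIs were found in 2.29% and 6.16% of all macrophages.

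Macrophages fell into 4 clusters, and Dcstamp differed between them as well as between the libraries. Cluster 9, led by Ccr2 and the MHC class II genes H2-Ab1 and Cd74, had 84.7 CPM in vehicle and 238 in WQ-2101 (ratio 2.81, 2.61 to 3.02). Cluster 13, led by Mmp12, Mmp13 and Cxcl3, had 36.9 and 133 (3.59, 3.04 to 4.27). Cluster 10, led by the chemokines Ccl12 and Ccl8 and by Ms4a7, had 4.58 and 33.2 (7.25, 5.29 to 10.1). Dcstamp was thus higher in WQ-2101 in all 3 clusters of mature macrophages, and the order of these 3 was the same in both libraries. Monocyte-like cluster 18, led by Plac8, Chil3 and Ly6c2, went the other way, with 24 UMIs in 396 vehicle cells (13.3 CPM) and none in 137 WQ-2101 cells. The exact conditional interval of that ratio was 0 to 0.659, and the floor of 3 counts is 6.59 CPM there.

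**Figure D4:**
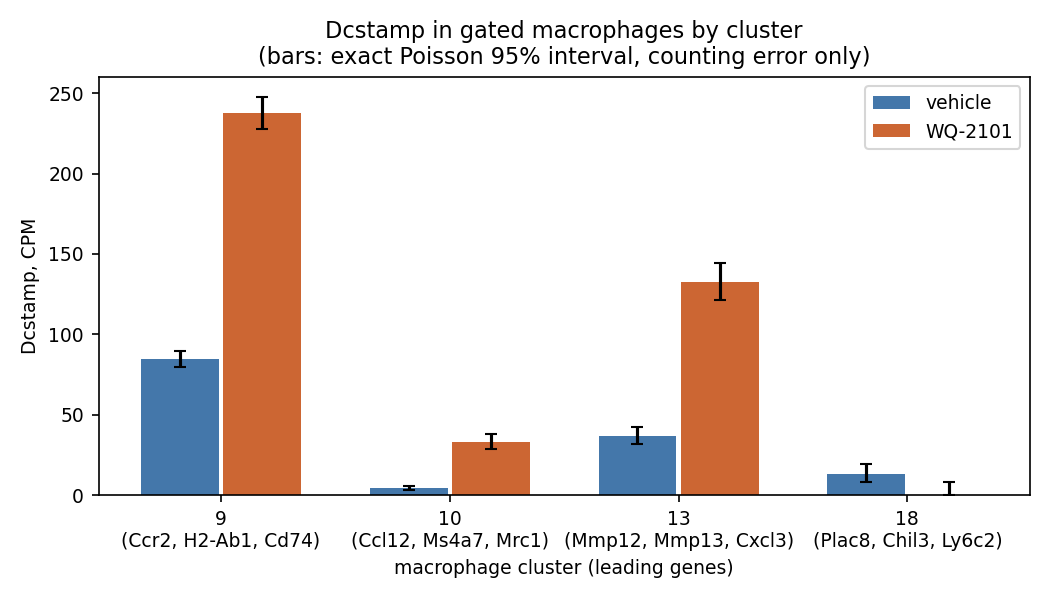
Dcstamp level in CPM in gated macrophages of each of the 4 macrophage clusters, with vehicle and WQ-2101 as paired bars and exact Poisson intervals. The WQ-2101 bar is taller in clusters 9, 10 and 13, and there is none in cluster 18, where no UMI was counted.

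The remaining genes marked other macrophage clusters. Atp6v0d2 belonged to cluster 13, at 68.3 CPM in the vehicle library and 78.9 in the WQ-2101 library, against 2.21 and 1.38 in cluster 9 and 7.82 and 14.7 in cluster 10. Ocstamp was highest in monocyte-like cluster 18, at 17.2 and 24.2 CPM, and was 7.60 and 6.48 in cluster 9. Tnfrsf11a was highest in cluster 10, at 58.6 and 44.3 CPM. Acp5 was even across the 4 clusters in vehicle, from 33.1 to 45.3 CPM, and in cluster 10 it was 39.0 in vehicle and 62.3 in WQ-2101 (1.60, 1.39 to 1.84). The fusion genes Dcstamp and Ocstamp and the pump subunit therefore peaked in 3 different clusters.

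The same macrophages were also compared by gene programmes scored cell by cell, with the cells above the 75th percentile of a score set against the rest. The cut was common to both libraries, and these ranges are not cell types: for MHC class II, 168 vehicle and 227 WQ-2101 cells lay within 10% of it. Dcstamp was 126 CPM in vehicle macrophages with high MHC class II and 23.7 in the rest (5.31-fold, 4.78 to 5.91), and 285 and 71.8 in WQ-2101. In macrophages with high C1q it was lower, at 10.3 against 57.9 CPM in vehicle and 80.9 against 161 in WQ-2101. Hypoxia-high macrophages had 38.2 CPM in vehicle and 178 in WQ-2101, where the rest had 47.1 and 121. High-scoring cells were not equally common in the libraries: 21.1% and 29.3% for MHC class II, 19.5% and 31.1% for hypoxia, and, the other way, 33.3% and 15.9% for the monocyte programme. Dcstamp was higher in WQ-2101 both above and below the cut of each of the 7 programmes.

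Atp6v0d2 differed most by the lipid-associated programme (Gpnmb, Trem2, Spp1 and related genes). It was 44.8 CPM in high-scoring vehicle macrophages and 3.76 in the rest (11.9-fold, 9.42 to 15.2), and 66.9 and 4.02 in WQ-2101. Ctsk, whose vehicle share was no higher in macrophages than in T cells, was 25.8 against 12.5 CPM by the same programme in vehicle (2.07-fold, 1.73 to 2.47). In WQ-2101 it was 10.3 against 3.38 (3.06-fold, 2.09 to 4.48). Neither pattern was particular to that programme. In hypoxia-high macrophages Atp6v0d2 was 5.10-fold the rest in vehicle (4.24 to 6.13) and 4.38-fold in WQ-2101 (3.59 to 5.37). Ctsk was 1.92-fold in vehicle (1.58 to 2.33) and 1.95-fold in WQ-2101 (1.33 to 2.86) there. Ocstamp was higher in cells with high MHC class II, at 13.7 against 3.07 CPM in vehicle and 10.1 against 3.45 in WQ-2101. Although its highest cluster was the monocyte-like one, it differed less by the monocyte programme, at 7.05 against 4.64 CPM in vehicle (1.52-fold, 1.10 to 2.09) and 6.23 against 5.42 in WQ-2101 (1.15-fold, 0.666 to 1.88).

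In single macrophages the 10 genes seldom met. After thinning, Ocstamp was found in 3.05% of Dcstamp-positive and 1.61% of Dcstamp-negative vehicle macrophages, and in 3.00% and 1.49% in WQ-2101. The intervals overlap within vehicle (1.33 to 5.93 and 1.22 to 2.09) and within WQ-2101 (1.69 to 4.90 and 1.05 to 2.04). Tnfrsf11a was less common in Dcstamp-positive cells, at 4.96% against 11.5% in vehicle and 5.80% against 9.19% in WQ-2101. Ctsk was found in 13.2% of Atp6v0d2-positive and 3.34% of Atp6v0d2-negative vehicle macrophages, and in 2.94% and 1.23% in WQ-2101. Among Dcstamp-positive macrophages, Ctsk was found in 5.34% in vehicle and 0.400% in WQ-2101, against 3.51% and 1.49% of the negative ones. Few macrophages with Dcstamp thus had a UMI of Ctsk, the most abundant enzyme of the osteoclast-like cluster. Their Ctsk share was above that of the negative cells in vehicle and below it in WQ-2101. Because vehicle T cells had about the same Ctsk share as vehicle macrophages, the vehicle shares are not read as co-expression.

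Macrophages with at least 2 thinned Dcstamp UMIs (101 in vehicle and 265 in WQ-2101) were compared with those without any. Their 10 leading genes were Ccl17, Hepacam2, Klrb1b, Il1r2, Ear2, Mgl2, Ifitm1, Tnfrsf9, P2ry10 and Pdcd1lg2. The chemokine Ccl17 was 872 CPM against 23.6 in vehicle and 373 against 19.4 in WQ-2101, and the lectin Mgl2 395 against 64.2 and 504 against 192. Pdcd1lg2, which encodes the PD-1 ligand PD-L2, was 36.6 against 9.52 and 68.3 against 21.2. Summed MHC class II genes were 22892 against 7690 CPM in vehicle and 21838 against 10570 in WQ-2101. Dendritic cell markers were 23.0 against 13.3 and 17.95 against 22.9, and the osteoclast markers outside the 10 genes 201 against 233 and 190 against 224. The dendritic sum was thus higher in Dcstamp-carrying macrophages of vehicle and lower in those of WQ-2101, and Ccl17 also led dendritic cluster 14. The gate had left out cells with high marker sums of another class, which limits both comparisons.

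Tnfsf11, the RANKL gene, came mainly from T and NK cells. It was 105 CPM in vehicle T cells and 88.1 in WQ-2101 T cells (ratio 0.840, 0.688 to 1.02), and 78.3 and 127 in NK cells. A T cell cluster with Cd8a and Ifng held 304 and 289 CPM. Tumour cells had 0.142 and 0.385 CPM. Among the classes of at least 50 cells over both libraries, the decoy receptor osteoprotegerin, Tnfrsf11b, was highest in fibroblasts in vehicle, at 18.4 CPM (42 UMIs). In WQ-2101, fibroblasts had 14.1 CPM (12 UMIs) and endothelial cells 16.8 CPM from 1 UMI, so no order is read there. Of the growth factors of osteoclast precursors, Il34 was highest in tumour cells, at 210 and 247 CPM. Csf1 was 86.7 and 71.7 CPM in tumour cells, with higher levels in fibroblasts (153 and 218) and neutrophils (490 and 118). Ligand and growth factors were thus present in both libraries.

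Several of the 10 genes had sources outside the monocyte lineage. In neutrophils Mmp9 was 339 CPM in vehicle and 229 in WQ-2101, and Atp6v0d2 263 and 95.9, from 191 and 85 cells of a median of 991 and 968 UMIs. Ctsk was 320 and 153 CPM in fibroblasts, which use it to digest collagen. Nfatc1 measured 156 and 33.5 CPM in endothelium (52 and 2 UMIs in 41 and 14 cells) and 151 and 96.7 in fibroblasts. Acp5 was 50.6 and 52.4 CPM in T cells and 48.7 in WQ-2101 B cells (28 UMIs). After thinning, only 1 of 32 WQ-2101 B cells had a UMI of Acp5. Dendritic cells had Dcstamp at 136 and 96.0 CPM.

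Outside macrophages, calls were made in 4 classes. In tumour cells, 0 of 4 genes at the filter were higher (background 0.937%) and 2 lower (background 0.429%, or 1.37% in either direction), Ctsk at 8.82 and 3.08 CPM and Nfatc1 at 72.0 and 46.3. In T cells, 1 of 5 was higher (background 2.42%), Dcstamp at 3.16 and 14.2, and 1 lower (3.56%, or 5.98% in either direction), Ctsk at 14.0 and 0.489. Dendritic cells had 0 of 6 higher (8.01%) and 2 lower (9.06%), Acp5 at 15.3 and 5.57 and Tnfsf11 at 12.6 and 1.39. Fibroblasts had 0 of 5 higher (9.05%) and 4 lower (5.92%): Ctsk, Acp5, Mmp9 and Nfatc1. Nfatc1 in tumour cells rested on 8129 and 5651 UMIs, while Ctsk in T cells rested on 31 and 1 and Dcstamp on 7 and 29. In dendritic cells, Acp5 rested on 17 and 4 UMIs and Tnfsf11 on 14 and 1. The fibroblast counts were 731 and 130 for Ctsk, 56 and 12 for Acp5, 51 and 8 for Mmp9, and 345 and 82 for Nfatc1.

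Some differences ran through cell types that are not known to use the gene. In the 17 clusters with at least 100 cells in each library, Ctsk and Mmp9 were lower in WQ-2101 in all 17, and Dcstamp was higher in 14 and lower in 3. Over the 4 largest tumour clusters of vehicle, Ctsk was 8.57 to 11.4 CPM in vehicle and 1.07 to 1.34 in WQ-2101, Acp5 6.02 to 7.35 and 0.984 to 1.78, and Dcstamp 0.584 to 1.07 and 1.65 to 1.98. For each of these 3 genes the ranges of the libraries did not overlap over the 4 clusters, which have at least 500 cells in each library. In WQ-2101, 2 further tumour clusters stood higher: Ctsk was 6.80 CPM in cluster 4 and 7.96 in cluster 16, and Dcstamp 17.1 in cluster 16. Of the Ctsk and Mmp9 UMIs together, Ctsk made up 65.6% in the vehicle cluster of osteoclast-like cells, 65.6% in vehicle macrophages (62.2 to 68.9) and 64.6% in vehicle T cells (49.5 to 77.8). The share was 46.5% in vehicle tumour cells, 7.32% in neutrophils and 93.5% in fibroblasts. In WQ-2101 it was 68.1% in the cluster (65.5 to 70.6), 76.3% in macrophages (68.7 to 82.8) and 36.2% in tumour cells (33.3 to 39.2), which lay further apart. The part of free RNA in the tumour, T cell and macrophage levels was not tested beyond these values.

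**Figure D5:**
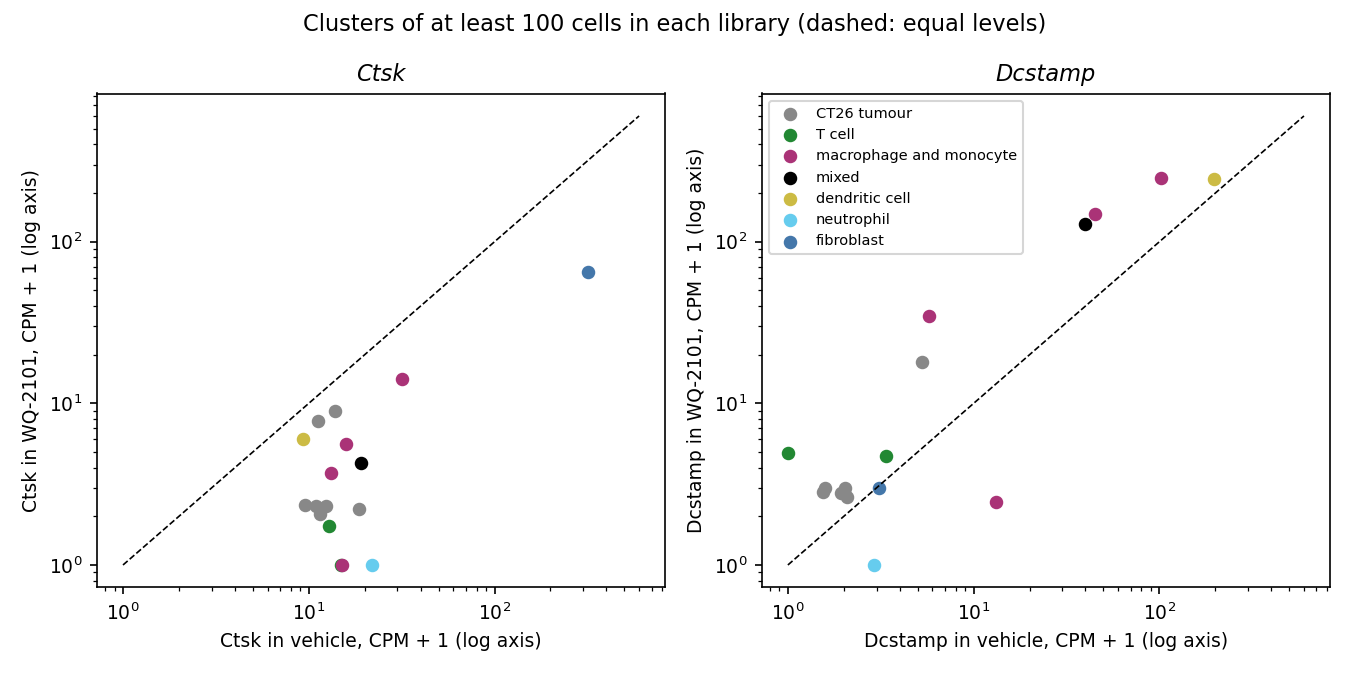
Ctsk and Dcstamp in each of the 17 clusters with at least 100 cells in each library, as CPM + 1 in vehicle against WQ-2101 on log axes, coloured by cell class, with equality as a dashed line. All points for Ctsk lie under the line, and 14 of 17 points for Dcstamp lie above it.

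Genes of the surrounding pathways were seldom past the fold in macrophages, as were genes in general (2.24% in either direction). None of 16 further osteoclast genes at the filter was past 1.5-fold, and the median log2 difference was -0.02, against 0.01 over all genes. None was past it among 14 ITAM genes (median -0.01), 16 genes that hold back osteoclast formation (-0.11), 31 cell fusion genes (-0.02) and 21 pump and lysosome genes (-0.07). Of 25 RANK signalling genes 1 was higher (median -0.01), the Csf1r ligand Il34, at 8.48 CPM in the vehicle library and 18.6 in the WQ-2101 library. Il34 was far higher in tumour cells (210 and 247 CPM) and was 9.49 and 10.8 CPM in T cells. The part of free RNA in its macrophage level was not tested. Counts this small are near the share over all genes and are not a result about the lists.

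The genes with the next largest differences in each list stayed under the fold. Ckb, a creatine kinase of osteoclasts, was 110 CPM in vehicle and 74.9 in WQ-2101, Jdp2 80.9 and 104, and Plekhm1 18.3 and 22.3. In the RANK list, Junb was 1082 and 885 and Traf3, a brake on the pathway, 206 and 247. The kinase Tec was 56.3 and 80.7, Fcgr4 78.8 and 104, and Plcg2 92.0 and 80.4. Among genes that hold back osteoclasts, Il10 was 26.1 and 17.6, Bcl6 45.6 and 64.2, and Irf8 148 and 186. Ccr2, a chemokine receptor of monocytes, was 234 and 161, Slc20a1 49.5 and 33.9, and the adhesion receptor Cd44 1380 and 1017. In the pump and lysosome list, Atp6v1h was 96.0 and 72.3, Atp6ap2 161 and 126, and Ctsb 942 and 1136.

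Genes most like each of the 10 were found over the 24 clusters, by Pearson's r of log2(CPM + 5) with both libraries together. The clusters share 2 libraries, and a single cluster with high values dominates r, so these are descriptions. Akap6 (0.899), Rufy4 and Gm39094 were closest to Ctsk. For Acp5 they were 1110008P14Rik (0.938), Arfgef3 and Slc37a2, for Mmp9 Ccr3 (0.923), Gm39094 and Nyap2, and for Atp6v0d2 Hnmt (0.901), Slc18a1 and Reps2. Dcstamp was closest to Lactb (0.898), Gm42962 and Shtn1, and Ocstamp to Grk3 (0.948), Cyp2s1 and 9630028I04Rik. Tnfrsf11a went with Mfsd12 (0.903), Hexa and Shtn1, and Nfatc1 with Ppargc1b (0.854), Xpr1 and Letm1. Oscar went with Ano4 (0.993), Pate4 and Tdrd5. Tnfsf11 alone pointed to lymphocytes, with Ifng (0.974), Cd96 and Klrc1.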

How the data were processed

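Raw UMI counts per gene and barcode were deposited by the authors for 1 vehicle and 1 WQ-2101 library. Per the file headers, Cell Ranger 7.2.0 wrote them, whereas Cell Ranger 2.2.2 and GRCm38 stand in the submitters' processing notes. Barcodes under 500 UMIs or 300 genes, or over 15% mitochondrial, were left out, and Scrublet removed 545 vehicle and 753 WQ-2101 doublets. The 2000 most variable genes, without the 10 genes (6 were among them), gave 24 Leiden clusters (scanpy 1.11.5, igraph 0.11.9, Python 3.11.15, scipy 1.17.1).

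A cell was gated where its summed class markers reached 20% of the level in the highest cluster of that class, with at least 3 UMIs and 2 markers, and was called mixed where another class reached 50% of that. Vehicle and WQ-2101 held 16 and 6 osteoclast-gated cells within 1.5 times the limit. The gating rule was set after the data were seen. Counts were summed per class and library, with exact Poisson, exact conditional and Clopper-Pearson intervals. Log2 differences used CPM plus 5, and a gene was called at 1.5-fold with a mean of at least 5 CPM. The floor for a count of 0 was 3 UMIs. The summing and calling steps were tested on simulated data. With 1 library per group no test was made.

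The 10 genes and the lists were chosen with earlier results of these data known. Named were all 10, the 3 largest differences of each list in macrophages plus any past the fold, the 3 genes most like each of the 10, and 10 leading genes of a cell group (at least 20 CPM). Of the 34 genes of the cell fusion list, 33 were in the deposited matrices. Alternatives changed filters, gates, scaling, weights, pseudocount and free RNA.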

Additional observations from a re-analysis of the deposited data

Results flagged for a closer look

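Dcstamp differed between vehicle and WQ-2101 in opposite directions in different macrophage clusters. It was higher in WQ-2101 in clusters 9, 10 and 13, and lower in monocyte-like cluster 18, where 24 UMIs were counted in vehicle and 0 in WQ-2101. The difference between the log2 differences (CPM plus 5) of cluster 18 and the others was 3.31 for cluster 9, 3.87 for cluster 10 and 3.59 for cluster 13. With 1 library per group these were not tested, and their size depends on the pseudocount because cluster 18 was at 0 in WQ-2101. Over all cells of cluster 18, including those outside the macrophage gate, Dcstamp was 12.1 CPM in vehicle and 1.45 in WQ-2101.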

How the results depend on the processing

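No called result turned its direction. Of the 29 alternative values for the main counts and ratios, 26 stayed close and 3 moved: with cells thinned to 3000 UMIs, the ratio of Dcstamp-positive macrophages was 2.33 in place of 1.75, and that of cells with Ctsk, Acp5 and Mmp9 together 0.0773 in place of 0.159; with cells taken from clusters, chosen after seeing the data, the ratio of osteoclast-like cells was 0.0655 in place of 0.124. The causes were not tested. Dcstamp was called in macrophages under every alternative run, Ctsk under all but the subtraction of free RNA, where Acp5 was called in its place, and Mmp9 in fewer. The log2 difference of Dcstamp ran from 1.43 to 1.67, of Ctsk from -1.49 to -0.32 and of Acp5 from 0.26 to 0.62, and Nfatc1, at 0.06, was -0.06 with cells weighted alike. Genes called higher in macrophages numbered 162 as reported, 281 with a pseudocount of 1, 265 with cells weighted alike, 104 with clusters at equal shares and 103 with cells from clusters, and genes called lower 48 as reported and 88 with a pseudocount of 1. Subtracting free RNA used its lowest estimate, 6.38% in vehicle and 10.5% in WQ-2101. No paired analysis was possible because each group was 1 library. Depth limits the 14 WQ-2101 cells of the osteoclast-like cluster, where 3 UMIs are 18.5 CPM.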
